A study of Bos taurus with 24 samples.

Results

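The Arp2/3 complex is the machine that builds branched actin, and its 9 subunit genes were followed across 5 groups of bovine granulosa cells. The genes were chosen by name: ACTR2 and ACTR3, ARPC1A and ARPC1B, ARPC2, ARPC3, ARPC4, ARPC5 and ARPC5L. All 9 were found among the 27607 genes of the count table, all 9 had counts in each of the 24 libraries, and all 9 passed the filter on low counts that left 14298 genes for testing. Symbols were given to the table's gene identifiers by position, and the overlap of the gene spans, as a share of their union, was between 0.875 for ARPC4 and 1.0 for ACTR2. Coordinates are those of the deposited table, on the build ARS-UCD1.2.

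The complex binds the side of an existing actin filament and starts a daughter filament there, which gives the branched network that pushes membranes forward. ACTR2 and ACTR3 encode the actin-like proteins Arp2 and Arp3, ARPC2 and ARPC4 form the structural core on the mother filament, and the other subunits hold the actin-like pair. Activators such as WASL and the WAVE proteins bind the complex. ARPC1A and ARPC1B are alternative forms of the same subunit, as are ARPC5 and ARPC5L, and complexes with different forms are known to differ in how readily they build actin networks. Granulosa cells send actin-filled transzonal projections through the zona pellucida to the oocyte, and such thin projections hold bundled filaments of the kind that formins elongate.

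The samples were bovine granulosa cells, the somatic cells of the ovarian follicle. The groups were 4 libraries from secondary follicles (secondary_GC), which have no antrum yet, and 5 each of cumulus cells, next to the oocyte, and mural granulosa cells, along the follicle wall, from early antral follicles (early_CC and early_MGC) and from late antral follicles (late_CC and late_MGC). The series sets expression beside cultures in which granulosa cells of different stages were combined with denuded oocytes and examined for new projections. The labels name no breed, age or treatment, and they do not say whether libraries of a group came from separate animals, so p-values measure only the spread between these samples.

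Total counts per library ran from 8379801 to 31762400, and levels are given as counts divided by the library's total and multiplied by 1000000 (CPM), with libraries listed in the order 1 to 4 or 1 to 5. Called genes are those with a Benjamini-Hochberg adjusted p under 0.05, over all genes tested, in edgeR's quasi-likelihood test, and fold changes are on the log2 scale with their standard error (SE). In bulk samples such as these, fewer cells of a type and less RNA per cell cannot be told apart. The library late_MGC 3 went against its label: its 7 granulosa markers summed to 369.0 CPM against 3442 to 6364 in the other 4 late_MGC libraries, with FSHR at 10.6 CPM. NR5A2 (239.4 CPM) and INHBA (89.83 CPM) were the lowest of the group but present, and FOXL2, at 0, was at most 0.786 CPM in the group. The library's 8 measured theca and stroma markers summed to 2109 CPM against 202.0 to 364.7, mostly lumican (LUM, 1621 CPM). In this library CYP17A1 stood at 0.161 CPM and INSL3 at 1.88 CPM, against up to 349.4 CPM for INSL3 in the group. Its 8 endothelial markers summed to 26.3 CPM against 2.09 to 6.104, mostly CLDN5 (16.71 CPM), with PECAM1 and ESAM at 0. That sum averaged 32.08 CPM in secondary_GC and 37.73 CPM in early_MGC. In late_MGC 3 the 7 measured blood markers summed to 1.07 against 0.601 to 1.71. Its 8 measured oocyte markers summed to 3.54 against 0.487 to 1.44, mostly DAZL (2.303 CPM), with BMP15, ZP3 and ZP4 at 0. The main late_MGC results are therefore also given without this library, and the part these cells play in the results was not tested. late_CC 3 and early_MGC 4 also correlated less with their own groups (mean r of 0.9145 and 0.9205 against 0.870 for late_MGC 3 and 0.9225 or more for each other library). In late_CC 3 the granulosa markers summed to 2301 CPM against 8923 to 16930 in the other 4 late_CC libraries, with INHBA at 191.0 against 4890 to 11330 CPM and FSHR at 301.0 against 329.9 to 397.1 CPM. Its theca and stroma markers summed to 145.6 against 497.3 to 670.8 CPM, mostly through INSL3 (26.92 against 382.2 to 597.0 CPM). LUM and COL1A1 were also lower there, but PDGFRA was higher, at 79.53 against 14.25 to 29.48 CPM, so the sum does not measure stroma. The part of late_CC 3 in the results was not tested beyond leaving it out.

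On a per-length scale, CPM per kb of exon, the subunit genes spanned a wide range although their proteins meet in 1 complex. ARPC2, part of the core, was highest with a mean level of 136.4 CPM per kb over all libraries. ARPC5L (63.5), ARPC5 (53.2), ARPC4 (33.5), ACTR3 (31.8) and ARPC1A (26.3) followed, all in CPM per kb. ACTR2 stood at 14.9, ARPC3, a small subunit beside Arp3, at 10.98, and ARPC1B at 3.18 CPM per kb. ARPC1B was counted 18 to 471 times per library and ARPC3 39 to 423 times, the fewest of the 9. Reads that also match a near-identical copy elsewhere may be missing from such counts, because the table was made without an option for reads with several alignments, and the size of this loss was not tested. The group sums of the 9 genes were 755.8 ± 171.0 CPM in secondary_GC (SD, n = 4), 786.1 ± 100.8 in early_CC, 603.8 ± 82.9 in early_MGC and 493.2 ± 55.2 in late_CC (SD, n = 5 each). In late_MGC the sum was 910.1 ± 595.0 CPM (n = 5), and 645.6 ± 72.8 without late_MGC 3 (n = 4).

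**Figure D1:**
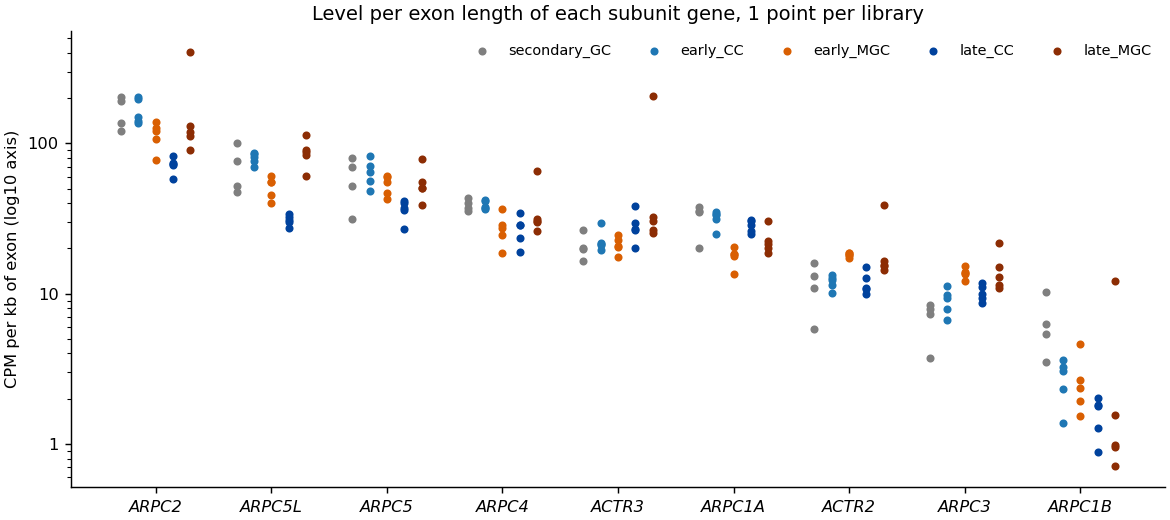
Level of each subunit gene per exon length, in CPM per kb on a log10 axis, with 1 point per library and 1 colour per group. ARPC2 is highest and ARPC1B lowest, and the topmost late_MGC point of ARPC2, ACTR3 and ARPC1B is library late_MGC 3.

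The clearest pattern was between cumulus and mural cells of late antral follicles. There 7 of the 9 subunit genes were called, all lower in late_CC than in late_MGC, while 20.8% of all genes tested were called lower and 39.7% were called in either direction. The members' median log2 fold change was -0.94, against 0.022 for all genes tested, and without late_MGC 3 the medians were -0.54 and 0.106. Without late_MGC 3, 4 of the 9 were called lower (ARPC2, ARPC5, ARPC5L and ACTR2), with 20.5% of all genes tested called lower. ARPC3, ARPC4 and ACTR3 thus rested on that library: without it their log2 fold changes were -0.54 ± 0.23 (adjusted p = 0.0584), -0.37 ± 0.18 (adjusted p = 0.0907) and -0.27 ± 0.18 (adjusted p = 0.243). Without late_CC 3 the same 7 were called.

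From the early to the late antral stage some of the 9 genes changed differently in cumulus and mural cells. In cumulus cells 4 of the 9 genes were called and all 4 fell (ARPC2, ARPC4, ARPC5 and ARPC5L), where 22.7% of all genes tested fell and 45.2% changed, and the median log2 fold change was -0.52 for the members and 0.039 for all genes tested. Without late_CC 3 there were 3, the fall of ARPC4 being -0.43 ± 0.21 (adjusted p = 0.0946). In mural cells 2 of the 9 were called and both rose (ARPC5L and ACTR3), where 9.76% of all genes rose and 19.1% changed. The count in mural cells moved with single libraries: leaving out early_MGC 3 gave 4 called members (ARPC1A and ARPC4 joined), leaving out late_MGC 2 gave 5 (ARPC2 joined as well), and leaving out late_MGC 3 gave 3, of which ARPC1B fell. Without late_MGC 3, 24.1% of all genes tested were called, 11.7% higher and 12.4% lower. For the fits without early_MGC 3 or late_MGC 2 no share over all genes is given, so their counts have no background beside them. The interaction of stage and cell type, which tests whether cumulus and mural cells changed differently, was called for 5 of the 9, all in the direction of a more negative change in cumulus cells, against 31.4% of all genes tested (16.9% in that direction). These were ARPC1A, whose cumulus over mural log2 fold change shrank from 0.73 (called) to 0.13 (not called), and ARPC2, ARPC4, ARPC5 and ARPC5L. Without late_MGC 3 there were 4, ARPC1A being lost, against 18.4% of all genes tested in that direction, and without late_CC 3 the same 4.

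Between early_CC and early_MGC 3 of the 9 were called, ARPC1A higher and ARPC3 and ACTR2 lower in cumulus cells, against 13.1% of all genes tested. Only ARPC1A among them was called when early_CC 3, early_CC 5, early_MGC 3 or early_MGC 4 was left out. Between early_MGC and secondary_GC 3 of the 9 were called, ARPC3 and ACTR2 higher and ARPC1A lower in early_MGC, against 9.1% of all genes. Between early_CC and secondary_GC the quasi-likelihood test called 0 of the 9, against 1.99% of all genes. ARPC1B alone had an unadjusted p under 0.05 there (0.0496), and DESeq2 and both limma-voom fits also called 0, while ARPC1B was called with the 2 groups alone and without the 3 libraries that stood apart (late_MGC 3, late_CC 3 and early_MGC 4). Over all 5 groups at once 8 of the 9 differed, against 65.1% of all genes tested, the exception being ARPC1B (adjusted p = 0.051). Without late_MGC 3 ARPC1B was called too (adjusted p = 5.91e-05), which made 9 of 9, with no share over all genes given for that fit. The comparisons share groups, so their values for a gene are not independent of each other.

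**Figure D2:**
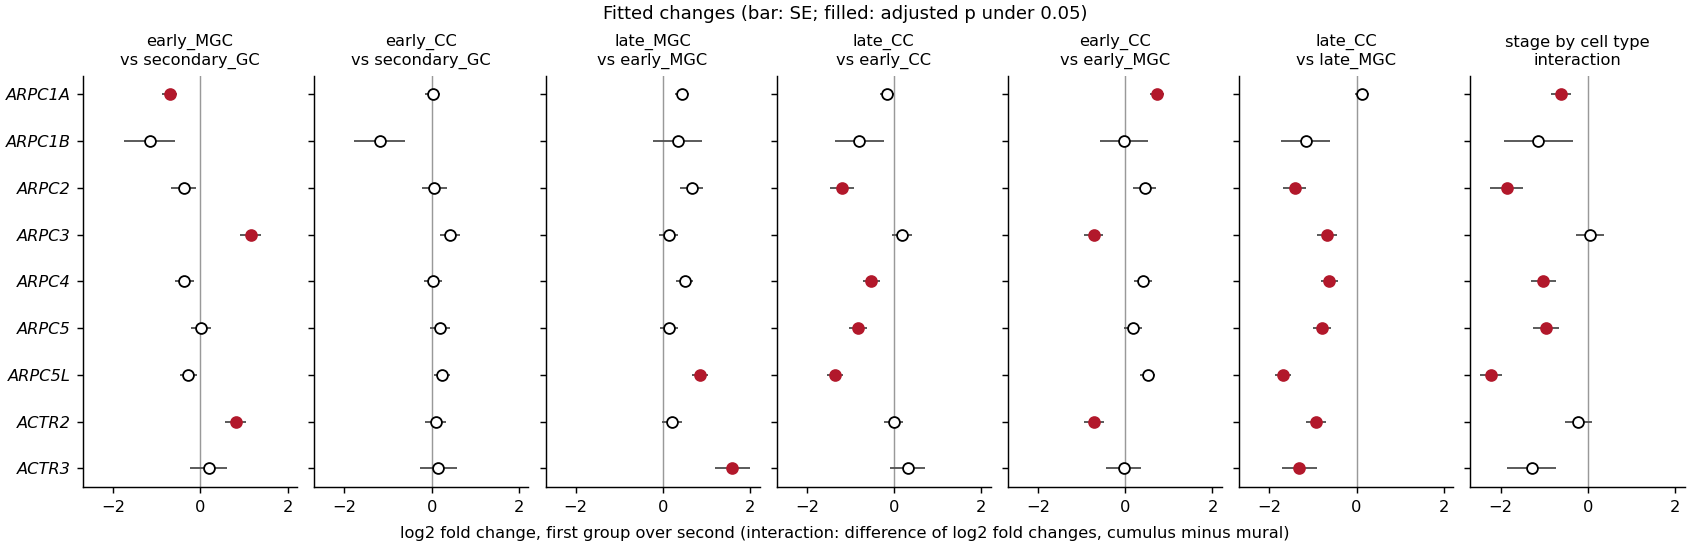
Fitted log2 fold change of each subunit gene in the 6 comparisons and the interaction, with SE bars; filled points have an adjusted p under 0.05. In late_CC against late_MGC 7 filled points lie below 0, and in late_CC against early_CC 4 do.

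**Figure D3:**
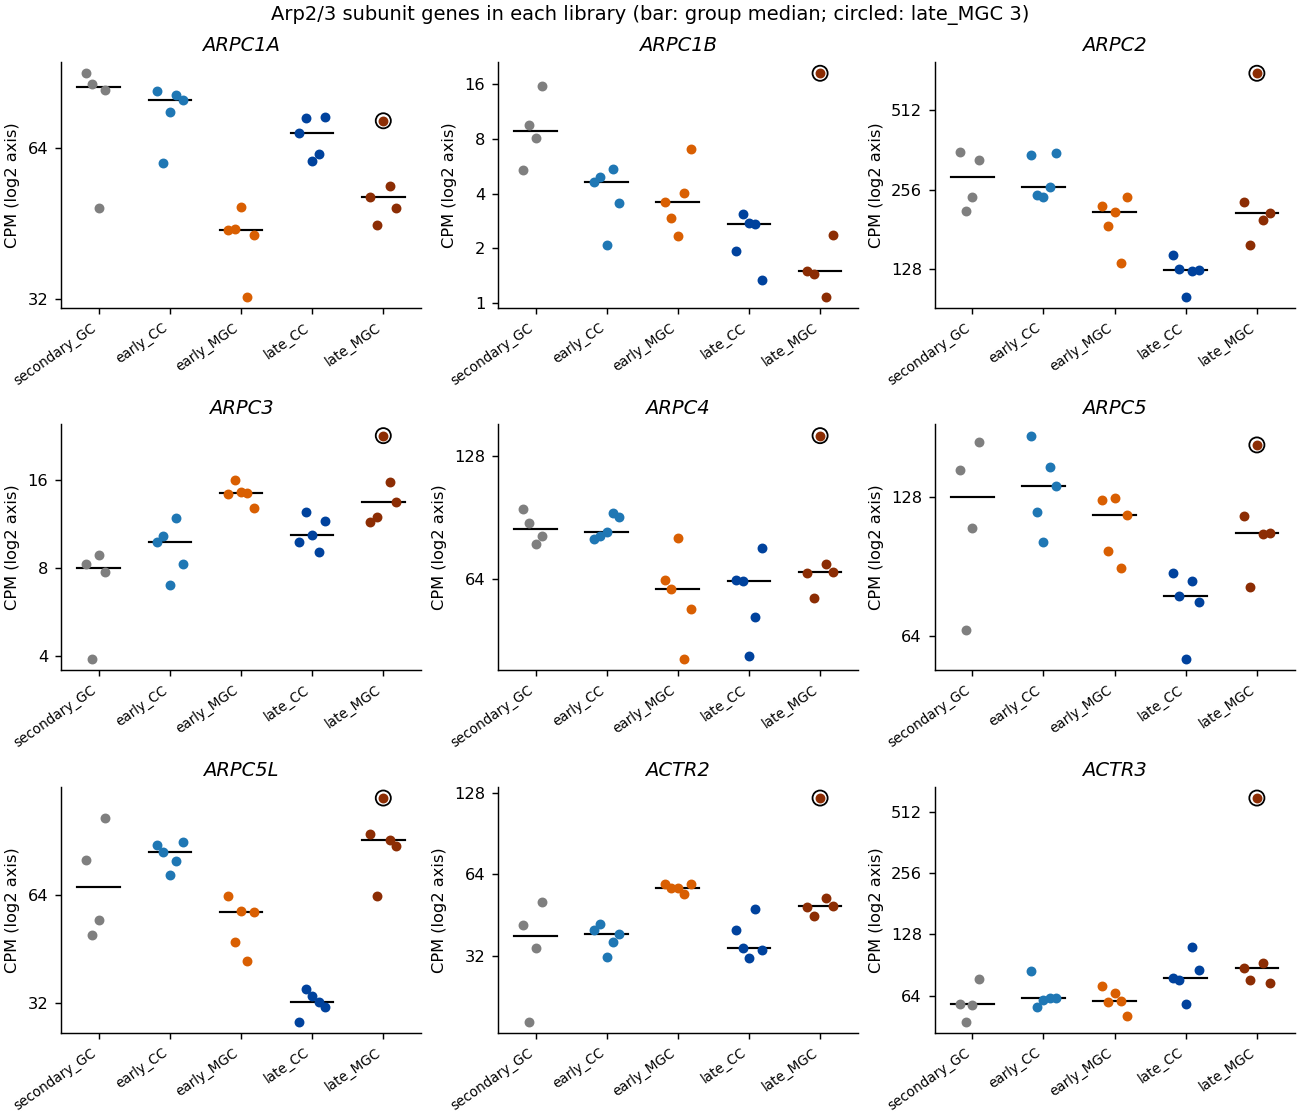
CPM of each subunit gene in every library, on log2 axes that differ between panels, with the group median as a bar and library late_MGC 3 circled. ARPC5L is lowest in the 5 late_CC libraries (28.5 to 35.2 CPM), and late_MGC 3 is the highest library of its group in all 9 panels.

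Among the actin-like subunits, ACTR2 was higher in mural than in cumulus cells at both antral stages. ACTR2 (ENSBTAG00000009761, chromosome 11, 63594845 to 63632511, plus strand) encodes Arp2, which with Arp3 forms the first units of the new branch. Its CPM were 41.5, 18.3, 34.3 and 50.6 in secondary_GC, 39.8, 42.05, 31.7, 36.02 and 38.6 in early_CC and 59.02, 56.9, 57.05, 54.3 and 58.8 in early_MGC. The early_MGC libraries lay within a few CPM of each other and above all 9 libraries of early_CC and secondary_GC. In late antral follicles the values were 39.95, 34.3, 31.4, 47.6 and 33.7 in late_CC and 48.3, 44.9, 122, 52.2 and 48.9 in late_MGC, where 1 late_CC library, number 4, overlapped the mural range. ACTR2 was lower in late_CC than in late_MGC (log2 fold change -0.94 ± 0.23, adjusted p = 0.00191), and the difference remained called without late_MGC 3, at -0.63 ± 0.19 (adjusted p = 0.00926). It was also lower in early_CC than in early_MGC (log2 fold change -0.72 ± 0.23, adjusted p = 0.0349) and higher in early_MGC than in secondary_GC (log2 fold change 0.82 ± 0.24, adjusted p = 0.0355), but these were called in only 12 of 21 and 9 of 18 alternative settings. From the early to the late antral stage ACTR2 had a log2 fold change of -0.0083 ± 0.22 in cumulus and 0.21 ± 0.22 in mural cells, neither called.

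ACTR3 (ENSBTAG00000003401, chromosome 2, 65522494 to 65569993, plus strand), which encodes Arp3, had overlapping ranges in 4 groups, and in late_MGC 1 library set its mean. It stood at 58.2, 47.8, 57.9 and 77.5 CPM in secondary_GC, 85.01, 56.4, 60.7, 62.7 and 62.4 in early_CC and 71.4, 59.4, 66.3, 60.3 and 51.1 in early_MGC, ranges that overlapped. It stood at 78.01, 76.4, 58.5, 111 and 85.4 in late_CC and 87.8, 76.4, 598, 93.2 and 73.6 in late_MGC, so late_MGC 3 held several times the level of any other library. With all libraries ACTR3 rose from early_MGC to late_MGC (log2 fold change 1.59 ± 0.405, adjusted p = 0.00785) and without late_MGC 3 the rise was 0.55 ± 0.18 (adjusted p = 0.0305), still called. The late_CC to late_MGC difference of -1.32 ± 0.401, adjusted p = 0.0116 was lost without it, as given above. The paralogue ACTR3B, an alternative Arp3, was far lower at a mean of 1.19 CPM per kb, with adjusted p of 0.344 or more in the 6 comparisons.

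ARPC2 and ARPC4, whose proteins form the core that grips the mother filament, fell in late cumulus cells. ARPC2 (ENSBTAG00000010386, chromosome 2, 106256621 to 106284396, plus strand) stood at 356, 212, 239.8 and 332 CPM in secondary_GC, 346, 244, 239.6, 262 and 353 in early_CC and 221, 186, 211, 135 and 240.0 in early_MGC. It stood at 144, 128, 100.3, 126.02 and 127 in late_CC and 229, 158, 707, 196 and 208 in late_MGC. All 5 late_CC libraries lay below every library of early_CC, secondary_GC and late_MGC, and in early_MGC only library 4 reached into their range. ARPC2 fell from early_CC to late_CC (log2 fold change -1.199 ± 0.27, adjusted p = 0.000846) and was lower in late_CC than in late_MGC (log2 fold change -1.42 ± 0.27, adjusted p = 0.000195; -0.91 ± 0.18 (adjusted p = 0.000267) without late_MGC 3). The interaction was -1.86 ± 0.38, adjusted p = 0.000666, and -1.35 ± 0.25 (adjusted p = 0.000182) without that library. In mural cells alone the value of 0.66 ± 0.27, adjusted p = 0.0843 did not pass the test and was 0.15 ± 0.18 (adjusted p = 0.589) without late_MGC 3.

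ARPC4 (ENSBTAG00000007964, chromosome 22, 16912813 to 16923222, minus strand) ranged over 77.9 to 94.99 CPM in secondary_GC, 80.00 to 92.6 in early_CC, 40.8 to 80.7 in early_MGC and 41.5 to 76.3 in late_CC. In late_MGC it was 66.2, 57.5, 143, 69.5 and 66.6, with late_MGC 3 the highest of all 24 libraries. Its fall from early_CC to late_CC (log2 fold change -0.52 ± 0.201, adjusted p = 0.037) left no overlap between the groups but was called in only 12 of 21 alternative settings. Its interaction of -1.02 ± 0.28, adjusted p = 0.00789 was called in all 28 alternative settings, with -0.78 ± 0.24 (adjusted p = 0.0141) without late_MGC 3. The span of ARPC4 overlaps the gene TADA3 and the spans of ARPC2 and ARPC3 hold smaller genes, but 0 of the 9 subunit genes share exon bases with another gene of the annotation.

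ARPC3 was lowest in the secondary follicle and higher in mural cells. The gene (ENSBTAG00000005345, chromosome 17, 54326081 to 54337078, minus strand) encodes a small subunit that sits against Arp3. Its CPM were 8.24, 3.899, 8.85 and 7.72 in secondary_GC, 9.79, 10.3, 6.97, 11.8 and 8.23 in early_CC and 14.3, 16.02, 14.5, 14.4 and 12.8 in early_MGC, so each early_MGC library stood above all of the other two groups. They were 9.79, 12.4, 10.4, 9.06 and 11.6 in late_CC and 11.4, 11.9, 22.7, 15.7 and 13.4 in late_MGC, where the ranges overlapped. ARPC3 was higher in early_MGC than in secondary_GC (log2 fold change 1.15 ± 0.24, adjusted p = 0.00485), called in all 18 alternative settings, and lower in early_CC than in early_MGC (log2 fold change -0.73 ± 0.22, adjusted p = 0.0307), called in 15 of 21. Its difference between late_CC and late_MGC (log2 fold change -0.68 ± 0.22, adjusted p = 0.0171) was -0.18 (adjusted p = 0.585) after a correction for exon length, described with ARPC5L.

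ARPC1A and ARPC1B are alternative forms of the subunit that meets the activators, and they lie close together on the same strand of chromosome 25 (ARPC1A, ENSBTAG00000004242, 37022843 to 37046234; ARPC1B, ENSBTAG00000046248, 37005358 to 37018031; both on the minus strand). ARPC1A was higher in cumulus than in mural cells at the early antral stage. It stood at 90.1, 85.6, 48.5 and 83.6 CPM in secondary_GC, 83.1, 59.8, 75.4, 81.7 and 79.8 in early_CC and 44.02, 44.1, 48.9, 32.3 and 42.9 in early_MGC. Every early_MGC library lay below every early_CC library, and secondary_GC 3 (48.5 CPM) fell within the early_MGC range. ARPC1A was higher in early_CC than in early_MGC (log2 fold change 0.73 ± 0.16, adjusted p = 0.00458), called in all 21 alternative settings, and lower in early_MGC than in secondary_GC (log2 fold change -0.71 ± 0.17, adjusted p = 0.0123), called in 17 of 18. At the late antral stage it was 68.5, 73.4, 60.1, 62.2 and 73.9 in late_CC and 51.1, 44.9, 72.5, 53.8 and 48.5 in late_MGC, where the difference of 0.13 ± 0.16, adjusted p = 0.56 did not pass the test. Its interaction of -0.61 ± 0.23, adjusted p = 0.0463 was called in 4 of 28 alternative settings.

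ARPC1B, the form known from blood cells, was sparse throughout. Its CPM were 5.38, 9.598, 8.15 and 15.6 in secondary_GC, 4.66, 4.95, 2.096, 5.47 and 3.53 in early_CC and 3.58, 2.94, 2.34, 4.06 and 7.04 in early_MGC. They were 1.95, 3.095, 2.77, 2.72 and 1.34 in late_CC and 1.495, 1.45, 18.4, 1.08 and 2.37 in late_MGC, so late_MGC 3 was the highest of all libraries in a group whose other 4 held the lowest level of any group. With all libraries ARPC1B was called in 0 of the 6 comparisons by the quasi-likelihood test and by DESeq2, with an unadjusted p under 0.05 in 2 of them (early_CC against secondary_GC and late_CC against late_MGC). Outside the 6, in late_CC against secondary_GC (46% of all genes tested called, 23.1% lower), ARPC1B was lower without overlap. Its log2 fold change there was -1.99 ± 0.59 (quasi-likelihood adjusted p = 0.00821). From early_MGC to late_MGC its log2 fold change was 0.34 ± 0.55 with late_MGC 3 (adjusted p = 0.716) and -1.15 ± 0.39 (adjusted p = 0.0307) without it, a fall that passed the test. The measured blood cell markers were near the floor in late_MGC 3 (sum 1.07 CPM, with PTPRC at 0.107 and CD68 at 0.857 CPM). They summed to 0.601 to 1.71 CPM in the other 4 libraries. The source of the ARPC1B counts in late_MGC 3 was not tested.

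**Figure D4:**
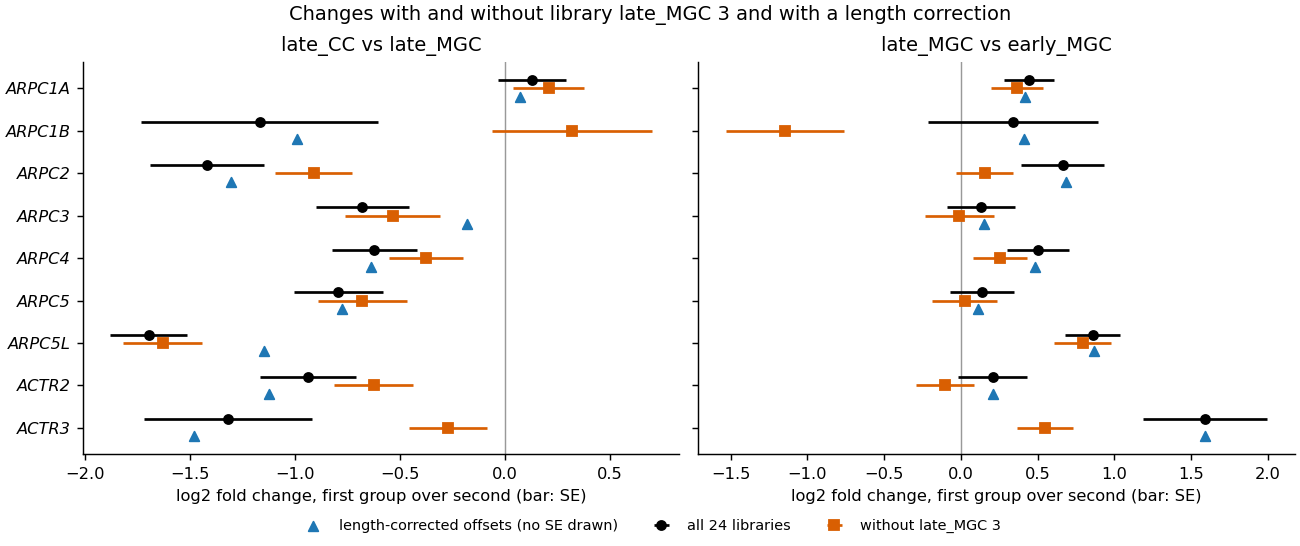
log2 fold change of each subunit gene in late_CC against late_MGC and in late_MGC against early_MGC, for all 24 libraries and without late_MGC 3 (SE bars), and with length-corrected offsets (no bars). ARPC5L keeps its value without late_MGC 3 while ACTR3 goes from -1.32 to -0.27 and ARPC1B changes sign in both panels.

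ARPC5L had the largest interaction of the 9 genes and moved in opposite directions in the cell types. ARPC5 (ENSBTAG00000045582, chromosome 16, 64674639 to 64684247, minus strand) and ARPC5L (ENSBTAG00000015278, chromosome 11, 95859752 to 95866961, plus strand) are alternative forms of the subunit that tethers Arp2. ARPC5L stood at 79.8, 49.4, 54.5 and 104 CPM in secondary_GC, 87.9, 84.1, 72.6, 79.6 and 89.6 in early_CC and 63.4, 47.5, 57.7, 42.01 and 57.5 in early_MGC. It stood at 28.5, 35.2, 33.6, 32.3 and 31.3 in late_CC and 94.2, 63.5, 119, 90.9 and 87.4 in late_MGC. The 5 late_CC libraries were the lowest of all 24, and late_MGC was above early_MGC in every library, the closest being late_MGC 2 (63.5) and early_MGC 1 (63.4). ARPC5L fell from early_CC to late_CC (log2 fold change -1.35 ± 0.18, adjusted p = 3.12e-06) and rose from early_MGC to late_MGC (log2 fold change 0.86 ± 0.18, adjusted p = 0.00142). It was lower in late_CC than in late_MGC (log2 fold change -1.697 ± 0.18, adjusted p = 1.42e-07) and its interaction was -2.21 ± 0.26, adjusted p = 5.74e-06. These 4 results were called in every alternative setting run. Without late_MGC 3 the rise in mural cells was 0.79 ± 0.18 (adjusted p = 0.00248), the late_CC to late_MGC difference -1.63 ± 0.19 (adjusted p = 1.41e-07) and the interaction -2.14 ± 0.26 (adjusted p = 1.5e-06).

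Late cumulus libraries differed from the others in a trend over exon length, and this touched ARPC5L and ARPC3, the shortest of the 9 with 1041 and 1048 exon bases. At the length of ARPC5L the smoothed level lay at -0.43 on the log2 scale in late_CC, against 0.31 in early_CC and 0.10 in both mural groups. With each library's trend added to the offsets, the fall of ARPC5L in cumulus cells was -0.59 (adjusted p = 0.00539) in place of -1.35, its late_CC to late_MGC difference -1.15 (adjusted p = 7.12e-06) and its interaction -1.46 (adjusted p = 7.24e-05), all still called. Its rise in mural cells kept its size at 0.87 (adjusted p = 0.000432). ARPC2 in cumulus cells became -0.84 (adjusted p = 0.0109). ARPC4 became -0.42 (adjusted p = 0.0955). ARPC3 went from 0.18 (adjusted p = 0.522) to 0.92 (adjusted p = 0.00389), called higher in late_CC. Whether the trend is biological or comes from the RNA or the libraries was not tested.

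ARPC5 was also lower in late cumulus cells. It ranged over 65.99 to 169 CPM in secondary_GC, 103 to 174 in early_CC, 89.98 to 128 in early_MGC, 57.1 to 87.6 in late_CC and 81.8 to 166 in late_MGC. All late_CC libraries lay below all early_CC and early_MGC libraries. ARPC5 fell from early_CC to late_CC (log2 fold change -0.83 ± 0.21, adjusted p = 0.0025) and was lower in late_CC than in late_MGC (log2 fold change -0.79 ± 0.21, adjusted p = 0.00432; -0.68 ± 0.21, adjusted p = 0.0119 without late_MGC 3). In mural cells its change with stage was 0.14 ± 0.21, adjusted p = 0.695, not called.

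The balance of the paralogues can be read within a library, free of the scaling between libraries. Per exon length, ARPC5L made up 50.5, 49.5, 47.8, 48.7 and 49.8% of the ARPC5L and ARPC5 level in early_MGC and 62.1, 61.2, 59.1, 63.3 and 62.4% in late_MGC. The groups did not overlap, and late_MGC 3 (59.1%) lay beside the rest of its group. The share was 52.4, 60.3, 50.2 and 55.6% in secondary_GC, 50.6, 58.9, 58.9, 52.02 and 57.3% in early_CC and 39.8, 47.7, 54.5, 43.7 and 45.5% in late_CC. On the log2 scale the ratio of ARPC5L to ARPC5 counts was 0.73 higher in late_MGC than in early_MGC, 0.37 higher in early_CC than in early_MGC, and lower in late_CC than in late_MGC, by a log2 difference of -0.903. For each of these the exact two-sided permutation p was 0.00794, the smallest that 5 against 5 libraries allow, or 0.0476 adjusted over 18 ratio tests. Each kept its direction when any 1 library of its groups was left out, with an exact p of 0.0159, the smallest that 5 against 4 allow, but an adjusted p of 0.0714 to 0.0952, which does not pass. With the length correction the rise in mural cells was 0.75 (exact p = 0.00794, adjusted 0.143), the early_CC to early_MGC difference 0.32 (exact p = 0.0635) and the late_CC to late_MGC difference -0.39 (exact p = 0.127). The log2 difference of the ratio from early_CC to late_CC was -0.54 (exact p = 0.0238, adjusted 0.0857) and 0.046 with the correction.

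For the other pairs no ratio differed past the threshold. Per length, ARPC1B was 16.8 ± 6.39% of the ARPC1B and ARPC1A level in secondary_GC (SD, n = 4), 7.975 ± 2.81% in early_CC, 12.97 ± 5.48% in early_MGC, 5.29 ± 1.71% in late_CC and 9.605 ± 10.7% in late_MGC (SD, n = 5 each), with late_MGC 3 alone at 28.6%. Its log2 ratio was lower in early_CC than in secondary_GC by a difference of -1.21 (exact permutation p = 0.0476, adjusted 0.122). ACTR3B was 7.86 ± 3.18% of the ACTR3B and ACTR3 level in secondary_GC and 2.23 ± 1.38% in late_MGC, the ends of its range. Its log2 ratio differed by -1.602 from early_MGC to late_MGC (exact permutation p = 0.0238, adjusted 0.0857).

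**Figure D5:**
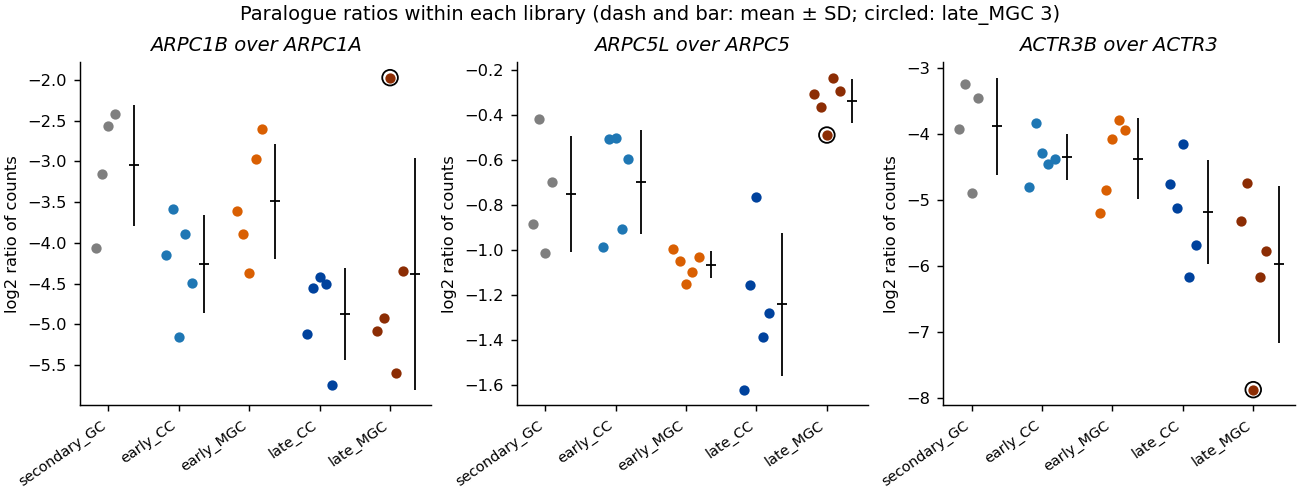
log2 ratio of counts of each paralogue pair in every library, with group mean ± SD beside the points and library late_MGC 3 circled. For ARPC5L over ARPC5 the 5 late_MGC points lie above the 5 early_MGC points. Circled late_MGC 3 is the highest of its group for ARPC1B over ARPC1A and the lowest for the other pairs.

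In the order of group means, late_MGC was first for ARPC2, ARPC3, ARPC5L, ACTR2 and ACTR3, secondary_GC for ARPC1A, ARPC1B and ARPC4, and early_CC for ARPC5. The last place was held by late_CC for ARPC1B, ARPC2, ARPC4, ARPC5 and ARPC5L, by secondary_GC for ARPC3, ACTR2 and ACTR3, and by early_MGC for ARPC1A. Of the 36 neighbours in these orders, 5 differed beyond their spread. These were early_MGC over late_CC for ARPC2, ARPC5 and ARPC5L (39.5% of all genes tested were called between these groups), early_MGC over early_CC for ACTR2, and late_MGC over late_CC for ACTR3, the last resting on late_MGC 3. Without that library late_MGC was first only for ARPC5L and ACTR3, early_CC was first for ARPC2 and early_MGC for ARPC3 and ACTR2, and late_MGC took the last place for ARPC1B (1.60 against 2.37 CPM in late_CC).

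Genes that feed, drive or oppose the complex were read from lists chosen by function. Of 11 genes of actin supply and capping, 7 were called in late_CC against late_MGC, all lower in late_CC, where 39.7% of all genes tested were called and 20.8% were lower. They were the monomer-binding thymosins TMSB10 (log2 fold change -2.92 ± 0.46) and TMSB4X (-2.33 ± 0.54), profilin PFN1 (-1.57 ± 0.27), the cyclase-associated proteins CAP1 (-0.75 ± 0.18) and CAP2 (-2.27 ± 0.52), and the capping protein genes CAPZA1 (-1.07 ± 0.27) and CAPZB (-0.99 ± 0.33). The same 7 were called lower without late_MGC 3, where ACTG1 was called higher, and with the length correction. Thymosins, profilin and cofilin belong to families with near-identical copies, so their counts are uncertain. The list's median was -0.99, against -0.94 for the subunit genes and 0.022 for all genes tested. Without late_MGC 3 these medians were -0.81, -0.54 and 0.106. In late_CC against early_CC 4 of the 11 were called, all lower, where 45.2% of all genes tested were called and 22.7% were lower. In late_MGC against early_MGC CAP1 alone was called, higher by 0.697 ± 0.18 on the log2 scale, where 19.1% of all genes were called.

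Activators did not move as 1 group (values are log2 fold changes ± SE here and in the next paragraph). Of 18 tested nucleation promoting factors and partners, 4 rose and 2 fell from early_CC to late_CC, a share below the 45.2% called over all genes. JMY, an activator that also nucleates on its own, rose by 2.09 ± 0.31 on the log2 scale, the WASH complex gene WASHC4 by 1.08 ± 0.24, the WAVE complex gene NCKAP1 by 0.896 ± 0.16 and WASL, which encodes N-WASP, by 0.68 ± 0.18. WASHC3 and the WAVE complex gene BRK1 fell, with log2 fold changes of -1.26 ± 0.22 and -0.98 ± 0.23. With the length correction the calls of WASL (0.396, adjusted p = 0.0526) and BRK1 (-0.296, adjusted p = 0.17) were lost. JMY and ABI2 were lower in early_CC than in early_MGC (-1.74 ± 0.305 and -1.06 ± 0.21), as were WASF3 and CYFIP2. These 4 of the 18 were called, all lower, where 13.1% of all genes tested were called and 6.39% were lower. From early_MGC to late_MGC 2 of the 18 were called, where 19.1% of all genes were: WASF3 fell by a log2 fold change of -2.98 ± 0.47, and ABI2 fell too. In late_CC against late_MGC 3 of the 18 were higher and 3 lower, but 5 and 2 without late_MGC 3 and 0 and 4 with the length correction, so the direction of this list depended on the setting. Over all genes tested 39.7%, 41.8% and 37.5% were called in these fits, in the same order. Of 8 tested upstream GTPases and adaptors, RAC1, which switches on the WAVE complex, fell from early_CC to late_CC (-0.92 ± 0.19) and FNBP1L rose (1.11 ± 0.42), a share below the 45.2% called over all genes. The FNBP1L call was lost with the length correction (0.93, adjusted p = 0.0802), and TRIP10 was then called higher (0.73, adjusted p = 0.046). In late_CC against late_MGC GRB2 was lower and TRIP10 and BAIAP2 were higher, 3 of the 8, where 39.7% of all genes tested were called. GRB2 was not called without late_MGC 3.

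Of 9 tested genes that inhibit the complex or take branches apart, 5 fell and 2 rose from early_CC to late_CC, where 45.2% of all genes were called and 22.7% fell. The branch-removing coronin CORO1B (-2.23 ± 0.51), the filament-severing cofilins CFL1 (-1.32 ± 0.25) and CFL2 (-0.68 ± 0.25), DSTN (-0.56 ± 0.21) and the Arp2/3 inhibitor ARPIN (-0.54 ± 0.19) were lower, and GMFB (1.55 ± 0.56), which debranches, and WDR1 (0.61 ± 0.18) higher. With the length correction 2 fell (CORO1B and CFL1) and 1 rose (GMFB), where 39.2% of all genes tested were called. CORO1B and CFL1 were also higher in early_CC than in early_MGC (2.19 ± 0.51 and 1.096 ± 0.25), 2 of the 9, where 13.1% of all genes were called. Among 12 tested nucleators that build unbranched filaments, the formin FMNL1 was higher in cumulus than in mural cells at both stages, by log2 fold changes of 3.59 ± 0.63 early and 3.63 ± 0.62 late, and DAAM1 rose from early_CC to late_CC by 1.39 ± 0.296. The list as a whole had no common direction. In early_CC against early_MGC 1 was higher and 1 lower (13.1% of all genes tested were called), and from early_CC to late_CC 1 rose and 1 fell (45.2%). In late_CC against late_MGC 2 were higher and 3 lower (39.7%), and 1 and 3 with the length correction (37.5%). Of 7 actin-related proteins outside the complex, ACTR1A of the dynactin filament, ACTR6 and ACTL6A of chromatin complexes were lower in late_CC than in late_MGC (-2.03 ± 0.34, -0.92 ± 0.33 and -1.39 ± 0.23). These were 3 of 7, where 39.7% of all genes tested were called and 20.8% were lower. The list's median was -0.158, and 0.0172 with the length correction. ACTR6 was not called without late_MGC 3 (-0.63, adjusted p = 0.117) or with the length correction (-0.67, adjusted p = 0.0965). ACTR1A and ACTL6A were called in both, and ACTR1B was called higher without late_MGC 3.

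Within groups, the subunit genes varied together from library to library. After subtracting group means from log2 CPM, all 36 pairs of members had a positive Pearson r over the 24 libraries, with a median of 0.51. Without late_MGC 3, late_CC 3 and early_MGC 4, 30 of 36 were positive, with a median of 0.34 over 21 libraries. The highest r was then 0.85, for ARPC2 and ARPC5, and the lowest -0.41, for ARPC1B and ARPC4. Pairs among the 7708 genes of at least 10 CPM had median r of 0.007 and 0.001 over the same libraries. All pairs share library depth and cell content, and these values are descriptions.

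The genes whose levels ran most like the mean of the members' standardised log2 CPM over 24 libraries, among 7183 named genes of at least 10 CPM, were GTF2E2 (Pearson r = 0.94), REXO2 (0.94), BZW1 (0.92), SRP14 (0.91) and CD63 (0.90). Without the same 3 libraries they ranked 41, 121, 346, 535 and 297, so their place depends on those libraries. By Spearman's rho the first was SELENOF (0.94).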

How the data were processed

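Read counts per gene of 24 libraries were analysed. The labels name total RNA, a low-input SMART-Seq v4 kit and Nextera XT libraries. Per the file headers, the authors counted reads on exons with featureCounts 2.0.0 and an Ensembl annotation of ARS-UCD1.2, with no option for strand, read pairs or multiple alignments, so antisense reads cannot be separated. Upstream tools named in the submitters' processing notes are HISAT2 2.1.0, fastp 0.20.0 and SAMtools 1.10. The exon length in the deposited table served for CPM per kb and the length correction. The 1 column of undetermined reads (8.3% of all counts) belongs to no sample and was not used. The columns of secondary_GC and late_MGC carry no matching replicate number and are numbered by column order. Totals ran from 8379801 to 31762400, with a median of 18070281.5. The 46 pairs of libraries within groups differed by more than sampling noise (chi-square per degree of freedom of at least 17.4).

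Symbols came from reciprocal best overlap of gene spans (at least 0.5 of the union) with the RefSeq annotation of ARS-UCD2.0. A symbol was found for 10805 (88.4%) of the 12219 genes averaging 1 CPM or more, and for 1039 of them when positions were shifted by 1000000 bases as a check of matching across the builds. Counts were tested in 1 fit of all 24 libraries by group with edgeR 4.0.16 in R 4.3.3: TMM scaling, filterByExpr, robust quasi-likelihood, Benjamini-Hochberg over 14298 genes. Each SE is the fold change divided by the root of the F statistic. The procedure was tested on simulated data. Paralogue ratios used log2 of counts plus 0.5 and exact two-sided permutation tests. Alternatives were RLE scaling, other filters, limma 3.58.1 (voom, with and without library weights), DESeq2 1.42.0, 2 groups alone, a replicate block and each library left out. Chosen after seeing the data were the fits without 3 libraries and with length correction, and the fit without a block over 15 libraries. The members and lists were chosen with earlier results of these data known. Named are all members, genes picked from those of the lists called in at least 1 comparison, and the 5 genes of most alike pattern.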

Additional observations from a re-analysis of the deposited data

Results flagged for a closer look

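Single libraries stood apart from their groups in 7 of the 45 combinations of subunit gene and group, by the gap to the nearest library as a share of the group's range (Dixon's criterion at 95%). Chance marks about 1 in 20 groups. The share over all genes tested was not computed, and most of these flags come from 1 library, so the count is no trait of the subunit genes. In late_MGC 3 these were ARPC1B (18.4 CPM), ARPC2 (706.9 CPM), ARPC4 (143.2 CPM), ACTR2 (122.2 CPM) and ACTR3 (597.7 CPM), in the library whose granulosa markers were low. The others were ARPC1A in secondary_GC 3 (48.5 CPM, low) and ACTR3 in early_CC 1 (85.0 CPM, high).

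The change from the early to the late antral stage differed between cumulus and mural cells, by the interaction test of edgeR, for 5 subunit genes. The differences of log2 fold change, cumulus minus mural, were -0.61 for ARPC1A (adjusted p = 0.0463), -1.86 for ARPC2 (0.000666), -1.02 for ARPC4 (0.00789), -0.97 for ARPC5 (0.0154) and -2.21 for ARPC5L (5.74e-06).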

How the results depend on the processing

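Called in every alternative run were ARPC5L in late_MGC against early_MGC (19 alternatives, log2 fold change 0.75 to 0.97), ARPC2, ARPC5 and ARPC5L in late_CC against early_CC (21), ARPC1A in early_CC against early_MGC (21), ARPC3 in early_MGC against secondary_GC (18), ARPC2, ARPC5, ARPC5L and ACTR2 in late_CC against late_MGC (19), and ARPC2, ARPC4 and ARPC5L in the interaction (28). Counts of called members moved by over 1.5 times as follows, and the cause was not tested. Genes called of all genes tested are in parentheses. With 2 groups alone 1 was called in early_MGC against secondary_GC (1006 of 12980), 1 (ARPC1B) in early_CC against secondary_GC (964 of 13398) and 1 in late_MGC against early_MGC (1612 of 12379). DESeq2 called 1 in late_MGC against early_MGC (3014 of 14298), with no adjusted p for ACTR3. With no filter 1 was called in early_CC against early_MGC (1474 of 21017). Without the 3 libraries that stand apart 1 (ARPC1B) was called in early_CC against secondary_GC (1304 of 14179), 4 in late_CC against late_MGC (5963 of 14179) and 3 in the interaction (4942 of 14179). Leaving out each library gave 2 to 5 in late_MGC against early_MGC, 1 to 3 in early_CC against early_MGC and 4 to 8 in late_CC against late_MGC. Without late_MGC 3 the counts were 3 in late_MGC against early_MGC (3396 of 14103) and 4 in late_CC against late_MGC (5891 of 14103). For the other fits of this kind no share over all genes is given, so their counts have no background beside them. With the replicate number as a block over 15 libraries, 5 were called in early_CC against early_MGC (2656 of 13336). The numbers share no stated source, however: same-number pairs had r from -0.15 to 0.242, and 5 of 15 libraries correlated best with their own number. Depth limits ARPC1B most, at 18 to 471 counts.

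Values that changed sign, by setting, were small or rested on late_MGC 3, with 1 exception. The ratio of ARPC5L to ARPC5 in late_CC against early_CC went from -0.54 to 0.046 with the length correction. With RLE scaling they were -0.0073 for ARPC5 in early_MGC against secondary_GC, -0.037 for ARPC1A in early_CC against secondary_GC and -0.028 for ARPC4 in early_CC against secondary_GC. With DESeq2 they were -0.0078 for ARPC5 in early_MGC against secondary_GC, -0.037 for ARPC1A in early_CC against secondary_GC and -0.028 for ARPC4 in early_CC against secondary_GC. With a mean of at least 10 CPM they were -0.028 for ARPC1A in early_CC against secondary_GC, -0.018 for ARPC4 in early_CC against secondary_GC and 0.055 for ACTR2 in late_CC against early_CC. With 2 groups alone they were -0.019 for ARPC1A in early_CC against secondary_GC and -0.011 for ARPC4 in early_CC against secondary_GC. With limma-voom with library weights they were -0.011 for ARPC2 in early_CC against secondary_GC, -0.91 for ARPC1B in late_MGC against early_MGC, -0.016 for ARPC5 in late_MGC against early_MGC, -0.072 for ACTR2 in late_MGC against early_MGC, 0.022 for ARPC1B in early_CC against early_MGC, 0.072 for ARPC1B in late_CC against late_MGC, 0.0501 for ARPC1B in the interaction and 0.032 for ACTR2 in the interaction. With length-corrected offsets it was -0.0077 for ARPC4 in early_CC against secondary_GC. With limma-voom it was -0.44 for ARPC1B in late_MGC against early_MGC. Without the 3 libraries that stand apart they were -1.08 for ARPC1B in late_MGC against early_MGC, -0.062 for ACTR2 in late_MGC against early_MGC, 0.026 for ACTR2 in late_CC against early_CC, 0.035 for ARPC1B in early_CC against early_MGC, 0.013 for ACTR3 in early_CC against early_MGC, 0.23 for ARPC1B in late_CC against late_MGC, 0.19 for ARPC1B in the interaction and 0.088 for ACTR2 in the interaction. With no filter it was -0.053 for ARPC3 in the interaction. With length-corrected ratios they were -0.0028 for ARPC5L over ARPC5 in early_CC against secondary_GC (ratio), 0.046 for ARPC5L over ARPC5 in late_CC against early_CC (ratio) and -0.066 for ACTR3B over ACTR3 in early_CC against early_MGC (ratio). With pseudocount 5 it was -0.046 for ACTR3B over ACTR3 in early_CC against early_MGC (ratio). Leaving out each library gave -0.18 to 0.204 for ARPC5 in early_MGC against secondary_GC, -0.12 to 0.11 for ARPC1A in early_CC against secondary_GC, -0.048 to 0.16 for ARPC2 in early_CC against secondary_GC, -0.0037 to 0.064 for ARPC4 in early_CC against secondary_GC, -0.0098 to 0.38 for ARPC5 in early_CC against secondary_GC, -0.12 to 0.29 for ACTR2 in early_CC against secondary_GC, -1.15 to 0.59 for ARPC1B in late_MGC against early_MGC, -0.0097 to 0.21 for ARPC3 in late_MGC against early_MGC, -0.104 to 0.31 for ACTR2 in late_MGC against early_MGC, -0.063 to 0.029 for ACTR2 in late_CC against early_CC, -0.17 to 0.19 for ARPC1B in early_CC against early_MGC, -0.17 to 0.021 for ACTR3 in early_CC against early_MGC, -1.42 to 0.32 for ARPC1B in late_CC against late_MGC, -1.39 to 0.35 for ARPC1B in the interaction, -0.035 to 0.19 for ARPC3 in the interaction, -0.32 to 0.098 for ACTR2 in the interaction, -0.79 to 0.12 for ARPC1B over ARPC1A in late_CC against late_MGC (ratio), -0.034 to 0.16 for ARPC5L over ARPC5 in early_CC against secondary_GC (ratio) and -0.19 to 0.16 for ACTR3B over ACTR3 in early_CC against early_MGC (ratio).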
